A study of Rattus norvegicus with 6 samples.

Results

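The 300 circular RNAs (circRNAs) with the brightest signal in normal rat lung were followed into the lung of rats with acute respiratory distress syndrome (ARDS). They are 300 of the 14145 circRNA probes on the array. For each probe the log2 processed signal was averaged over the 3 normal arrays without scaling, and the 300 highest means were taken. The ARDS arrays played no part in the choice. The normal values therefore chose the circRNAs and are given as a description, and the ARDS values are the measurements that the choice did not use. A difference between ARDS and normal lung still contains the normal values that made the choice.

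Whole lung tissue of 6 adult male rats was profiled, 1 array per rat. The 3 normal rats form 1 group, and the 3 rats with ARDS form the other. ARDS was induced with lipopolysaccharide, a cell wall molecule of Gram-negative bacteria that sets off inflammation. The dose and route of lipopolysaccharide, the time after it and the rat strain are not given in the sources used here. In all 6 samples total RNA was digested with RNase R before labelling with the dye Cy3 and hybridisation.

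A circRNA forms when the downstream end of an exon is joined back to an upstream start, a reaction called back-splicing. The closed loop has no free end, so it resists exonucleases such as RNase R, and circRNAs can build up in tissues whose cells divide slowly. In inflamed lung they are studied as markers of injury and as RNAs that may bind microRNAs or proteins. Host genes, positions and probe sequences are not paired with the probe numbers in the files. Only 4 circRNAs are therefore named, by the array's own identifiers, and the others are given by their rank of signal in normal lung. For the same reason the lung label was not checked against marker genes. Brightness also depends on how well a probe binds and how well an RNA is labelled, so a rank here is a rank of signal and not of RNA copies.

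Between 12179 and 13425 circRNA probes per array were well above background. All 300 of the brightest were so on all 6 arrays, and all 300 passed the filter on dim probes, so none is missing from the counts below. No spot was saturated. The brightest of the 300 reached a raw signal of 135510 to 208881 per array, or 17.4% to 26.8% of the scanner's ceiling. The median local background around their spots was 17 to 19 on the 5 arrays of the first scan and 24.5 on ARDS replicate 3, the array scanned apart.

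In normal lung the 300 circRNAs spanned a 95.6-fold range of signal. The mean log2 signal fell from 17.36 at rank 1 to 10.79 at rank 300. The edge of the set is not a natural gap, since rank 299 stood at a signal of 1765.2 and rank 300 at 1764.5, while ranks 301 and 302 stood at 1759 and 1750.1. The drop was steep at first, to 13.79 at rank 25 and 12.04 at rank 100. The 300 circRNAs, 2.12% of those on the array, carried 54%, 49.7% and 51.1% of the summed circRNA signal on normal replicates 1, 2 and 3. The 5 brightest alone carried 11.9%, 14.5% and 13%.

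Lists of 300 chosen on only 2 of the normal arrays shared 275, 269 and 290 circRNAs with the full list when replicate 1, 2 or 3 was left out. Read on the array left out, those lists stood at 0.11, -0.32 and 0.06 log2 units relative to the pair of arrays that chose them, after each array was scaled to its 75th percentile. Over all circRNA probes the same values were -0.05, 0.05 and -0.02. The lists thus read lower on normal replicate 2, and higher on normal replicates 1 and 3, than on the arrays that chose them.

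The brightest circRNAs kept their places at the top in ARDS lung. At rank 1, the unscaled log2 signal was 17.68, 17.1 and 17.31 on normal replicates 1 to 3 and 17.43, 17.62 and 16.97 on ARDS replicates 1 to 3. At rank 2 it was 17.33, 17.32 and 17.15 in normal and 17.56, 17.25 and 17.01 in ARDS lung. The groups overlapped for both, and these circRNAs held ranks 1 and 2 in the ARDS mean as well. The circRNA of rank 3 had 17.22, 16.85 and 17.08 in normal and 16.36, 16.95 and 15.88 in ARDS lung, and it held rank 3 on each of the 6 arrays. The circRNA of rank 4 read 16.07, 15.41 and 15.53 against 15.74, 15.85 and 14.81, and that of rank 5 read 16.16, 15.36 and 15.43 against 15.99, 16.03 and 15.28. Before scaling none of the 5 passed the test between groups, with differences from -0.65 to 0.11 (limma adjusted p from 0.145 to 0.991).

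**Figure D1:**
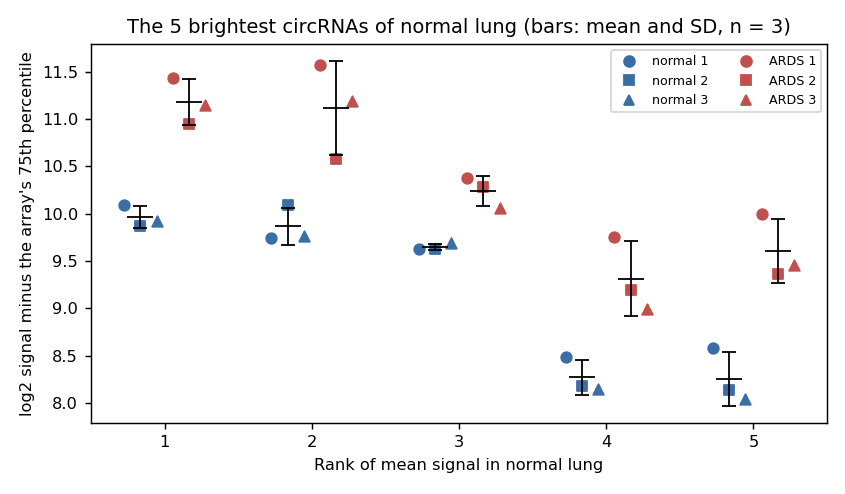
The 5 circRNAs with the highest mean signal in normal lung, by rank on the horizontal axis, with the log2 signal minus the array's 75th percentile on the vertical axis. Each point is 1 array (blue normal, red ARDS) and bars give the mean and SD of 3 arrays. On this scaled axis the red points lie above the blue ones at each rank, whereas before scaling the differences ran from -0.65 to 0.11.

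The scale decides how such values read, because most circRNAs were dimmer on the ARDS arrays. The 75th percentile of log2 signal over all circRNA probes was 7.59, 7.22 and 7.39 on the normal arrays and 5.99, 6.66 and 5.82 on the ARDS arrays. Without scaling, the median difference between ARDS and normal lung over the 13245 circRNAs tested was -1.19. With each array's 75th percentile subtracted it was 0.05. A circRNA that held its signal while the array dimmed is thus higher after scaling. On the scaled log2 axis the differences of the 5 brightest were 1.22, 1.25, 0.59, 1.04 and 1.35 in rank order, and all but rank 3 (limma adjusted p = 0.0788) passed, with limma adjusted p from 0.0219 to 0.0373. These 4 calls were lost with a trended and robust variance (limma adjusted p from 0.0599 to 0.117) and with quantile normalization (limma adjusted p from 0.435 to 0.903). They were also lost with a normexp background correction followed by quantile normalization (limma adjusted p from 0.39 to 0.707). The same held without any 1 of normal replicates 1 to 3 or ARDS replicate 1 (limma adjusted p from 0.0519 to 0.16). In whole tissue, fewer cells of a type and less RNA per cell cannot be told apart.

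**Figure D2:**
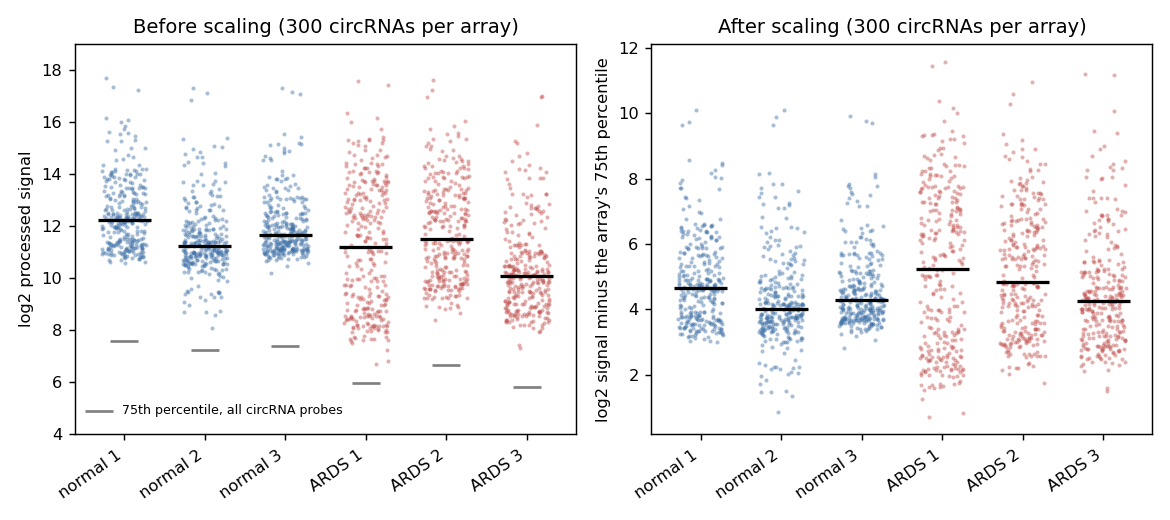
Signal of the 300 circRNAs on each array, before scaling (left, log2 processed signal) and after subtraction of the array's 75th percentile (right). Each point is 1 circRNA, black bars are medians and grey bars the 75th percentile of all circRNA probes. The unscaled medians were 12.26, 11.23 and 11.67 on the normal arrays and 11.21, 11.49 and 10.07 on the ARDS arrays, and on ARDS replicate 1 the points split into an upper and a lower group.

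The median unscaled difference of the 300 circRNAs was -0.44, against -1.19 over all circRNAs tested, and 91 of them (30.3%) lay above 0, against 10.6% of all. The median of the set depended on 46 circRNAs, described below, on which normal replicate 1 far exceeded normal replicate 2. For the other 254 the median difference after scaling was -0.1, against 0.8 for all 300 and 0.05 over all circRNAs tested. The median log2 signal of the 300 was 11.72 ± 0.515 (SD, n = 3) over the normal arrays and 10.93 ± 0.753 (SD, n = 3) over the ARDS arrays. It was 12.26, 11.23 and 11.67 on normal replicates 1 to 3 and 11.21, 11.49 and 10.07 on ARDS replicates 1 to 3, so the groups overlapped. The next 300 circRNAs by normal signal, ranks 301 to 600, went from 10.25 ± 0.203 to 8.63 ± 0.68 (SD over 3 arrays). The smaller loss lay in the upper ranks. The median unscaled difference was -0.13 in ranks 1 to 25, 0.06 in ranks 26 to 50, -0.43 in ranks 51 to 100 and -0.27 in ranks 101 to 200. In ranks 201 to 300 it was -1.74, close to the -1.71 of ranks 301 to 600. The share of circRNA signal carried by the 300 was 65.9%, 62.5% and 60.5% on ARDS replicates 1 to 3. The mean share was 51.6% ± 2.2 (SD, n = 3) over the normal arrays and 63% ± 2.75 (SD, n = 3) over the ARDS arrays, 11.4 percentage points more, and no ARDS array overlapped a normal one. With the normexp background correction alone, whose offset raises dim probes, the mean share was 6.74 percentage points more.

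Most of the circRNAs stayed among the 300 brightest. Of the 300, 196 (65.3%) were also among the 300 highest by mean signal in ARDS lung, and 104 were not. On the single ARDS arrays 170, 199 and 213 of them were in the array's own top 300, compared with 233, 258 and 283 on the single normal arrays, where the values that made the choice are counted. Lists chosen on 2 normal arrays had 208, 229 and 273 in the top 300 of the array left out, normal replicate 1, 2 or 3. The 208 on normal replicate 1 lay below the 213 on ARDS replicate 3. These counts come from different lists, so they do not order the arrays. Of the 300, all of the first 25 stayed in the ARDS mean, as did 24 of ranks 26 to 50, 47 of ranks 51 to 100, 68 of ranks 101 to 200 and 32 of ranks 201 to 300. There were 155 that were in the top 300 on all 3 ARDS arrays and 71 that were in it on none. Those that left had moved to a median rank of 530, and the lowest of all 300 stood at rank 1106 of the ARDS mean. The 104 circRNAs that took their places came from a median normal rank of 456.5, the farthest from rank 3198.

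**Figure D3:**
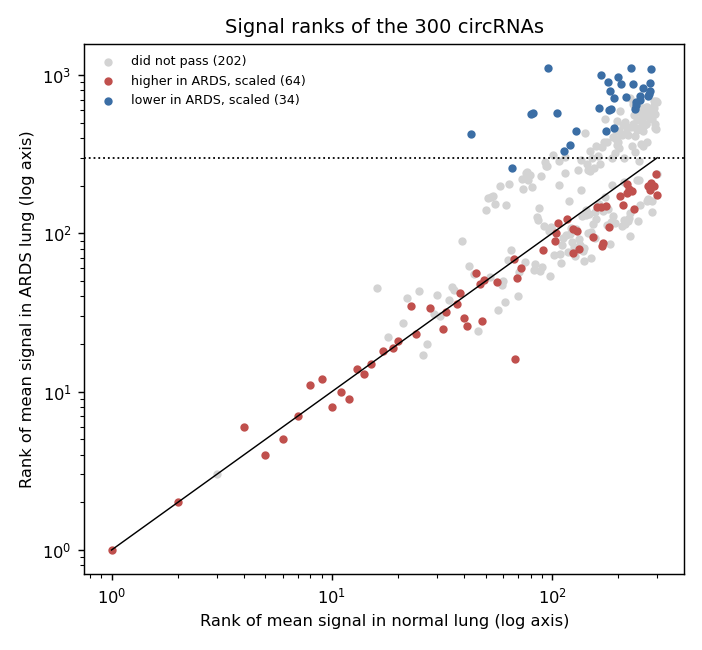
Rank of mean unscaled signal in normal lung (horizontal) and in ARDS lung (vertical) for the 300 circRNAs, both on log axes. The solid line marks equal rank and the dotted line rank 300. The top ranks follow the line, and 104 circRNAs lie above the dotted line, outside the ARDS top 300. Colours give the calls of the scaled test, 64 higher (red), 34 lower (blue) and 202 that did not pass (grey).

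The scaled differences of the 300 circRNAs between ARDS and normal lung fell into an upper and a lower class. On the scaled axis 152 had a difference from 0.75 to 2.25 and 121 one from -1.5 to 0, while only 13 lay between 0 and 0.75. A further 13 lay below -1.5 and 1 above 2.25. The limits of these classes were set after the values had been seen. Ranks 301 to 600 showed the same gap with the balance reversed, with 88 in the upper and 171 in the lower class and 16 between. Over all circRNAs tested 27% fell in the range from 0 to 0.75, against 4.33% of the 300.

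**Figure D4:**
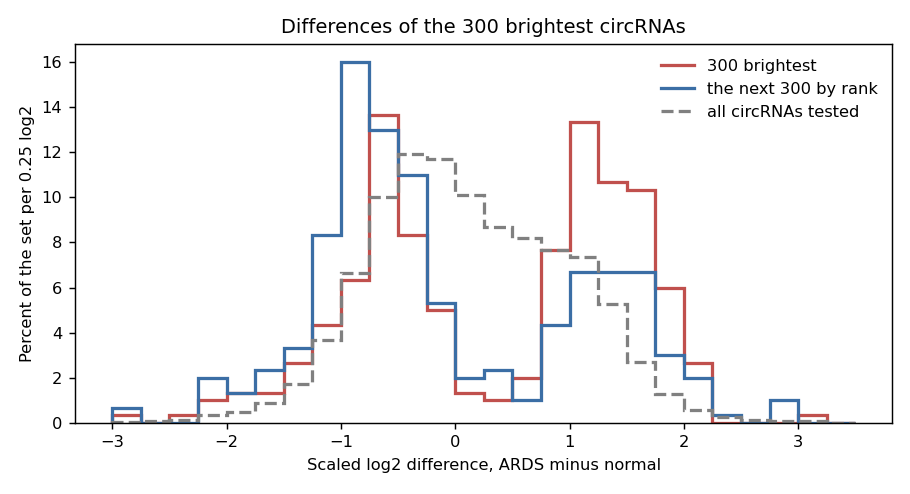
Distribution of the scaled log2 difference, ARDS minus normal, as percent of each set per 0.25 log2 units. The red line is the 300 brightest circRNAs, the blue line ranks 301 to 600 and the dashed line all 13245 circRNAs tested. The red line has 1 hump between -1.5 and 0 and another between 0.75 and 2.25, with 13 circRNAs in between.

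Scaling shifts the difference of every circRNA by the same 1.24 log2 units, so the limits of the classes also fix their unscaled range, and the values of the classes are a description. The median unscaled difference was 0.1 in the 152 circRNAs of the upper class and -1.88 in the 121 of the lower class. For the upper class the median log2 signal was 13.15, 11.36 and 11.96 on normal replicates 1 to 3 and 13.16, 13.1 and 10.84 on ARDS replicates 1 to 3. Both groups of arrays were thus spread widely and overlapped. Normal replicate 1 and ARDS replicates 1 and 2 were high, and normal replicates 2 and 3 and ARDS replicate 3 were lower. For the lower class it was 11.42, 11.06 and 11.31 in normal and 8.82, 10.07 and 9.23 in ARDS lung, with no overlap. The median SD of the scaled values between normal arrays was 0.42 in the upper and 0.18 in the lower class, and between ARDS arrays it was 0.73 and 0.41.

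In the test across all circRNAs, 64 of the 300 were higher and 34 lower in ARDS lung after scaling, and 202 did not pass (limma, Benjamini-Hochberg adjusted over all probes, threshold 0.05). That is 21.3% higher and 11.3% lower, where 11.6% and 8.21% of all 13245 circRNAs tested were called in those directions and 19.8% in either. The normal arrays that chose the set enter this test, so nothing about the set is read from its share. The higher circRNAs rose by 2.37-fold in the median and the lower ones fell by 2.47-fold in the median. Of those called, 54 rose and 29 fell at least 2-fold, and 1 rose and 5 fell at least 4-fold. The groups did not overlap for 176 of the 300 (58.7%), 89 with ARDS higher and 87 with ARDS lower, where 44.9% of all circRNAs tested did not overlap (23.1% higher and 21.8% lower). Of the first 25 ranks 19 were higher and 0 lower, whereas ranks 201 to 300 held 13 higher and 15 lower. The 300 circRNAs of ranks 301 to 600 held 42 higher and 59 lower, so calls were about as frequent there as in the set. At an unadjusted limma p under 0.05, 187 of the 300 passed, against 39.9% of all circRNAs tested.

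The direction of these calls rests on the scaling. With the array median in place of the 75th percentile, 52 were higher and 38 lower, where 11.1% and 9.37% of all circRNAs were called. With quantile normalization, which gives all arrays the same distribution and so forces the brightest values together, 1 was higher and 58 lower, where 8.73% and 10.2% of all circRNAs were called. With a normexp background correction followed by quantile normalization, 4 were higher and 39 lower, against 6.31% and 8.64% of all. Without scaling 1 was higher and 136 lower (45.3%), against 0.249% and 58.8% of all. Higher calls thus made up 65.3% of all calls with the 75th percentile, 1.69% with quantile normalization, 9.3% with normexp and 0.73% without scaling. The median difference of the 300 was 0.8 with the 75th percentile but -0.27, -0.32 and -0.44 with quantile normalization, with normexp and without scaling. Leaving out the scaling moves every difference down, which by itself keeps lower calls and removes higher ones. All 34 lower calls were also made without scaling, and 27 were called lower under the percentile, median, quantile, normexp and unscaled settings alike, whereas 1 was called higher under all 5. This agreement is given for the 300 only, so nothing particular to the set is read from it. Of the 64 called higher, 32 had an unscaled difference below 0, and their median was 0.002.

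The count also depended on single arrays, as it did over all circRNAs. With limma it was 98 of the 300 with all arrays. It fell to 10 without normal replicate 1, where 1.56% of all circRNAs tested passed. No circRNA of the set passed without normal replicate 2 (0, with 131 at an unadjusted limma p under 0.05) or without normal replicate 3 (0, with 123). Over all circRNAs 0.0227% passed in each of these fits, and 29.1% and 24.9% were at an unadjusted limma p under 0.05. The count was 13 without ARDS replicate 1 (3.03% of all circRNAs), 75 without ARDS replicate 2 (35 higher and 40 lower, 23.4% of all circRNAs called) and 179 without ARDS replicate 3 (131 higher and 48 lower, 27.5% of all circRNAs called).

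ASCRPR007438, of rank 68 in normal lung, had the largest rise among the circRNAs that passed the test without overlap between the groups. Its processed signal was 8463.2, 4237.1 and 5730.4 on normal replicates 1 to 3 and 35750, 24939 and 14371 on ARDS replicates 1 to 3, so that each ARDS array was above each normal array even before scaling. It rose 9.39-fold after scaling (log2 3.23, SE 0.37, limma adjusted p = 0.0104) and 3.97-fold without scaling (log2 1.99, limma adjusted p = 0.00435). Its rank went from 90, 72 and 74 on the normal arrays to 15, 21 and 18 on the ARDS arrays. It was the circRNA called higher under all 5 settings above. It no longer passed without normal replicate 2 (log2 3.08, limma adjusted p = 0.0725) or normal replicate 3 (log2 3.22, limma adjusted p = 0.0846).

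ASCRPR010751, of rank 48, had the next largest rise among those that passed without overlap, while circRNAs that did not pass had differences of up to 2.24. Its processed signal was 14251, 5119 and 8500.1 on the normal arrays and 21760, 20505 and 5816.2 on the ARDS arrays, and the groups overlapped before scaling, since ARDS replicate 3 lay below normal replicates 1 and 3. After scaling it rose 3.82-fold (log2 1.93, SE 0.47, limma adjusted p = 0.034), with 6.21, 5.1 and 5.66 in normal and 8.42, 7.66 and 6.69 in ARDS lung. It did not pass without scaling (log2 0.69, limma adjusted p = 0.332), with quantile normalization (log2 0.54, limma adjusted p = 0.12) or with normexp (log2 0.49, limma adjusted p = 0.0581). It also missed the threshold when any array other than ARDS replicate 3 was left out, with limma adjusted p from 0.0584 to 0.137.

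ASCRPR007979, of rank 96, fell the most. Its processed signal was 4636.3, 3746.7 and 4574.2 on the normal arrays and 104.7, 465.5 and 312.4 on the ARDS arrays. It fell 7.33-fold after scaling (log2 -2.87, SE 0.44, limma adjusted p = 0.0173) and 17.3-fold without scaling (log2 -4.12, limma adjusted p = 0.00166). On ARDS replicate 1 it stood at rank 2306, the lowest place of any of the 300 circRNAs on any array. ASCRPR000605, of rank 43, was the highest-ranked circRNA to leave the top 300. It read 10098, 7788.2 and 9291.9 on the normal and 284.2, 1179.9 and 999.9 on the ARDS arrays, 5.48-fold lower after scaling (log2 -2.45, SE 0.47, limma adjusted p = 0.0227) and 13-fold lower without it (log2 -3.7, limma adjusted p = 0.00192). Both passed under each scaling tried. Without normal replicate 2 or normal replicate 3 neither passed (limma adjusted p from 0.081 to 0.122), and ASCRPR000605 also missed without normal replicate 1 (0.0564).

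The normal arrays disagreed among themselves about part of the set. Over the 300 circRNAs Pearson's r of log2 signal between normal replicates 1 and 2 was 0.639, while normal replicate 1 correlated at 0.879 and 0.926 with ARDS replicates 1 and 2. Normal replicate 3 correlated at 0.892 with normal replicate 1 and at 0.865 with normal replicate 2. Over all circRNA probes normal replicates 1 and 2 correlated at 0.947. The set was chosen by these arrays and spans only the top of the signal range, so these values only describe it. For 46 of the 300, normal replicate 1 exceeded normal replicate 2 by more than 1.5 scaled log2 units, up to 26.7-fold. The limit of 1.5 was set after the values had been seen. These 46 lay between ranks 26 and 299, and they made up 32 of the 42 circRNAs of the set that were outside the top 300 on normal replicate 2.

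The 46 were chosen to be high on normal replicate 1 and low on normal replicate 2, so their values there are a description. Their median unscaled log2 signal was 13.28, 10.02 and 11.83 on normal replicates 1, 2 and 3 and 13.39, 13.31 and 9.89 on ARDS replicates 1, 2 and 3. Among the ARDS arrays, which the choice did not use, replicates 1 and 2 were high and replicate 3 was low. The positive control probe eQC-41, which is no circRNA, read 10.59, 5.81 and 8.66 on the normal and 9.86, 9.8 and 5.89 on the ARDS arrays, with the same arrays high and low. It was the only control probe looked at, so it does not stand for the array's controls as a whole. Its part in the result was not tested. All 46 had scaled differences from 0.93 to 2.24 and belonged to the upper class, so leaving them out by itself lowers the median of the set. Their median scaled difference was 1.74, and that of the other 254 was -0.1.

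**Figure D5:**
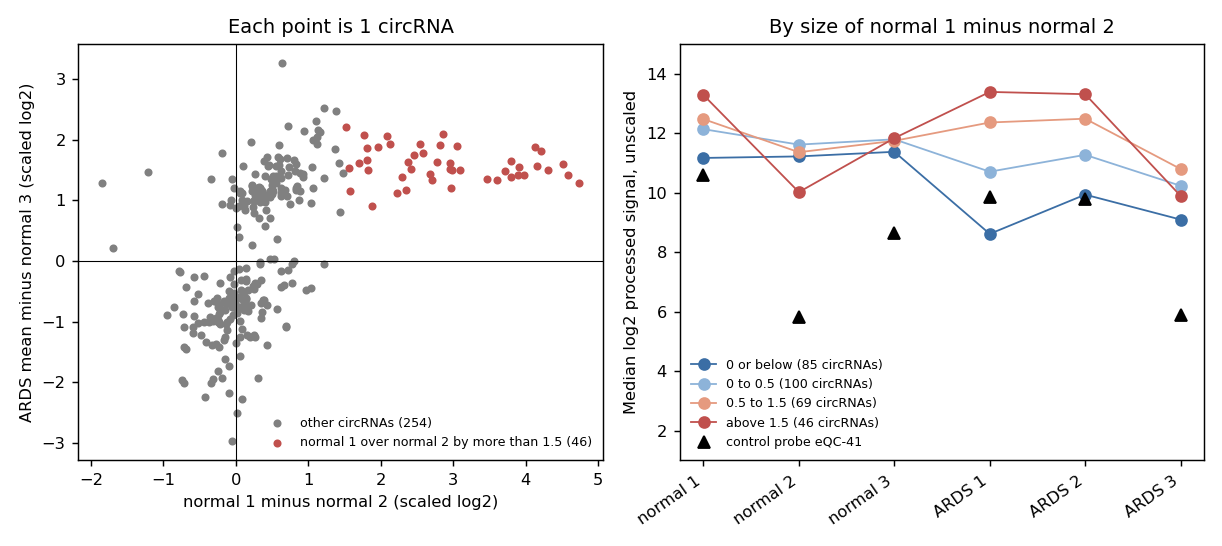
Left, for each of the 300 circRNAs, the scaled log2 difference between normal replicates 1 and 2 (horizontal) and between the ARDS mean and normal replicate 3 (vertical), which share no array; red points are the 46 with more than 1.5 on the horizontal axis. Right, the median unscaled log2 signal per array for 4 classes of that horizontal difference, with the control probe eQC-41 as triangles. The 46 circRNAs (red line) stood at 13.28, 13.39 and 13.31 on normal replicate 1 and ARDS replicates 1 and 2, and at 10.02 and 9.89 on normal replicate 2 and ARDS replicate 3.

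The disagreement of the normal arrays went along with the difference between ARDS and normal lung even where no array was shared. Of the 85 circRNAs that were not higher on normal replicate 1 than on normal replicate 2, the ARDS mean was above normal replicate 3 in 10 (11.8%). It was above in 53 of 100 with an excess of up to 0.5, in 56 of 69 (81.2%) with an excess from 0.5 to 1.5 and in all 46 above that. Over all circRNAs other than the 300 it was above in 47.1%, 54%, 77.6% and 97.1% of the same 4 classes. In ranks 301 to 600 it was above in all 38 of the last class. Spearman's rho of the 2 differences across the 300 circRNAs was 0.739 and Pearson's r 0.576, compared with a rho of 0.581 and an r of 0.602 in ranks 301 to 600 and a rho of 0.243 and an r of 0.293 over all circRNAs other than the 300. The difference between normal replicates 1 and 2 also went along with that between ARDS replicates 1 and 2 and ARDS replicate 3, with r at 0.868 in the 300, 0.891 in ranks 301 to 600 and 0.537 over all circRNAs other than the 300. The relation was thus not particular to the 300. The circRNAs of 1 array share its RNA, labelling and scan, and they are no independent replicates. In these 4 classes, in the same order, 7, 30, 27 and 0 circRNAs were called higher and 25, 9, 0 and 0 lower. Among the circRNAs other than the 300 the classes held 7848, 4025, 1444 and 517. Of these, 723, 566, 176 and 4 were called higher and 815, 223, 16 and 0 lower. The last class was chosen for a wide spread between normal arrays, which by itself makes a call unlikely.

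The 300 circRNAs were spread over the array. The 4 bands of 48 rows held 83, 75, 79 and 63 of them, or 27.7%, 25%, 26.3% and 21%, close to the 24.9% to 25.1% of all circRNA spots in each band. Their median scaled difference was 0.93, 1.1, -0.11 and 0.59 in these bands, and its relation to position was not tested. Consecutive identifiers occurred in 16 pairs, and the scaled differences of both circRNAs lay on the same side of 0 in 14 of these. In ranks 301 to 600 there were 8 such pairs, 5 of them on the same side. What the numbering stands for is not given in the sources used here.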

How the data were processed

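Per the file headers, the scanner's spots were quantified in Agilent Feature Extraction 11.0.1.1. The processed signal in the deposited scanner files is an intensity; the headers record background subtraction and spatial detrending, and no scaling between arrays. The authors' deposited table holds log2 values, made with limma of unstated version per the submitters' processing notes, and served only as an alternative. Control and outlier spots were left out, and repeated spots were averaged as log2. Each array's 75th percentile over circRNA probes was subtracted. A probe was tested if at least 3 of the 6 arrays had it well above background and each group had at least 2 values, which left 13245 circRNA and 51 linear probes for 1 fit with limma 3.58.1 in R 4.3.3 (two-sided, Benjamini-Hochberg). The fit was tested on simulated data with noise drawn independently for each probe and array. That cannot speak to deviations that many circRNAs of an array share, as seen here. The number of arrays, 3 per group, limits the precision. The normexp alternative used median spot and background signals.

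By rule, the circRNAs named were the 2 largest rises and 2 largest falls among those of the 300 that passed, were well above background on every array and had non-overlapping groups; the 5 brightest are given by rank. The set, the lists and the tests were chosen with earlier results of these data known. Same-numbered rats of the groups are different animals, and deviations of same-numbered arrays from their group means correlated at 0.588, -0.228 and 0.137, so the numbers were not taken as pairs.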

Additional observations from a re-analysis of the deposited data

How the results depend on the processing

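Counts of higher and lower circRNAs among the 300 were 64 and 34 as reported. The count of higher calls was 1 with quantile normalization, 1 without scaling and 4 with normexp followed by quantile normalization. It was 33 with a trended and robust variance and 131 with the scan as a block. That of lower calls was 58 with quantile normalization, 136 without scaling and 0 in the authors' deposited table, in which 60 were higher. That table lists ARDS above normal lung for all of its 13438 circRNAs, among them 134 of the 300 with a scaled difference below 0 in the scanner files, so its direction is not settled and its signs are not read as results; it called 17.4% of all circRNAs, all higher. The trended and robust variance called 12.7% and 10% of all circRNAs higher and lower, and the scan as a block 15.7% and 11.8%. The scan block removes ARDS replicate 3, the array of its own scan, and so equals leaving it out. Leaving out 1 array gave 0 to 131 higher and 0 to 48 lower calls; these fits have fewer arrays. The median difference of the 300 was -0.27 with quantile normalization, -0.44 without scaling and -0.32 with normexp, and 0.6 to 0.9 with 1 array left out. The replicate number as a block gave 87 higher and 39 lower calls in the 300, against 1801 and 1143 of all 13245 circRNAs tested. In deviations from the group means, however, normal replicate 2 correlated best with ARDS replicate 3 (0.551), not with its own number (-0.228). The share of signal on the 300 differed by 11.4 percentage points, and by 9.89 to 12.6 with 1 array left out. With normexp alone, whose offset of 50 raises all dim probes, it differed by 6.74 percentage points. The share of the 300 brightest that stayed in ARDS lung was 57.7% to 73.7% with 1 array left out. The authors' deposited table has the opposite sign for ASCRPR007979 (3.39) and ASCRPR000605 (3.17). With quantile normalization, no scaling and normexp the differences turned below 0 for the circRNAs of rank 1 (-0.0703, -0.025 and -0.0859) and rank 4 (-0.221, -0.199 and -0.149), none of them past the threshold; rank 3, not called as reported, was at 0, -0.65 and -0.143. The cause of these reversals was not tested. The gap between the 25th and 75th percentiles of the 300 differences, added after seeing the data, was 1.99, and 1.47 with quantile normalization and 1.42 with normexp. Depth limits little here, since all 300 were well above background.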
